A study of Mus musculus with 69 samples.

Results

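The comparison concerns WT–mCherry cells, wild-type mouse embryonic stem cell derivatives, taken from mosaic gastruloids at 144 h with either p53KO–emiRFP or WT–emiRFP cells as their neighbours. Gastruloids are aggregates of stem cells that, after a pulse of the Wnt agonist CHIR99021, elongate and form derivatives of the germ layers. The comparison rests on 6 of the 69 libraries of bulk RNA sequencing: 3 of WT–mCherry cells from WT + p53KO gastruloids and 3 of WT–mCherry cells from WT + WT gastruloids. Of 55367 gene symbols in the count table, 19431 passed the filter on low counts and were tested. The question was how p53-proficient cells that have shared their gastruloid with p53-deficient cells differ from the same clone beside wild-type cells.

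Every line derives from E14tg2A cells and is 1 clone. WT–mCherry cells carry an EF1α-driven H2B–mCherry transgene and intact Trp53. WT–emiRFP cells carry a CAG-driven H2B–emiRFP670 transgene, also with intact Trp53, and p53KO–emiRFP is a daughter clone of that line with a frameshift in Trp53. Both transgenes were inserted by piggyBac. WT + WT gastruloids were seeded with equal numbers of both clones, and WT + p53KO gastruloids with fewer p53KO–emiRFP than WT–mCherry cells. Seeding ratio and neighbour genotype therefore cannot be told apart. Gastruloids were pooled and sorted by FACS, and the study states that purity was not checked after the sort. In RNA from sorted populations, a lower count can come from fewer cells of a type or from less RNA per cell, and these cannot be told apart.

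The transcription factor p53 is activated by stress and drives genes of cell cycle arrest, DNA repair and apoptosis. In mosaic tissues, cells with lower p53 activity can displace neighbours with higher activity, a form of cell competition in which the less fit cells are called losers. Late gastruloids hold a caudal pole of neuromesodermal progenitors, presomitic mesoderm and somites, a neural tube-like population, and smaller endothelial, endodermal and germ cell-like populations.

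The 12 libraries at 144 h held between 47397767 and 63367172 counts. Trp53 had 13902, 14784 and 15145 normalized counts beside p53KO and 15975, 17254 and 17033 beside WT cells (log2 fold change −0.20, standard error 0.07, edgeR adjusted p = 0.0405). It had 1621 ± 155 normalized counts in p53KO–emiRFP and 19448 ± 863 in WT–emiRFP cells (mean ± SD, n = 3 each), so the libraries of the neighbours matched their labels. Normalized counts are counts divided by a size factor, and 3 values in a row are replicates 1, 2 and 3. Every adjusted p below is from edgeR's quasi-likelihood test with Benjamini-Hochberg adjustment over all tested genes, and a gene with a value under 0.05 is said to have risen or fallen beside p53KO cells. The small fall of Trp53 did not pass without replicate 1 (edgeR adjusted p = 0.0742), with TMM scaling (edgeR adjusted p = 0.0822), or after subtraction of emiRFP RNA by H2bc14 (edgeR adjusted p = 0.5), a step described next.

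The histone genes H2bc14, H2bc7 and H2bc21 marked RNA of the emiRFP clones. Their reads can be shared with other H2B genes of near-identical sequence, and whether the transgene contributes to them was not tested. H2bc14 had 926, 130.1 and 456 normalized counts beside p53KO and 136, 13.98 and 104 beside WT cells, with 5289 ± 309 in p53KO–emiRFP and 6628 ± 633 in WT–emiRFP cells (mean ± SD, n = 3 each). Each WT–mCherry library beside p53KO cells stood above its same-numbered partner beside WT cells, but the groups overlapped, since replicate 2, the lowest of both groups, lay beside p53KO cells below replicate 1 beside WT cells (log2 fold change 2.62, standard error 0.60, edgeR adjusted p = 0.00667). The call of H2bc14 was lost without replicate 1 (edgeR adjusted p = 0.0546) and without replicate 3 (edgeR adjusted p = 0.0519), that of H2bc7 without replicate 3 (edgeR adjusted p = 0.0669), and H2bc21 did not pass (log2 fold change 0.73, edgeR adjusted p = 0.182). The share of RNA from emiRFP cells was read as the level above a base, over the level of the same-numbered emiRFP library above that base. The base was the mean of WT–mCherry stem cells before aggregation. Read so, H2bc14 gave 16.8%, 2.26% and 9.1% beside p53KO cells and 2.01%, 0.0919% and 1.59% beside WT cells. H2bc7 gave 11.4%, 1.5% and 7.98% against 1.58%, 0% and 0.744%, and H2bc21 gave 19.6%, 2.73% and 19.4% against 6.09%, 1.42% and 6.82%. In replicate 2 beside WT cells H2bc21 had 29.5 normalized counts over a base of 18.3, where the other marks gave 0.0919% and 0%. Whether the base before aggregation holds for WT–mCherry cells at 144 h was not tested. For some genes such a share is more than the library holds, if that RNA has the profile of the sorted p53KO–emiRFP cells. In replicate 1 beside p53KO cells the H2bc14 share would add 9303 normalized counts of Grb10, where 7327 were measured, and 75.4 of Cer1, where 50.6 were measured. This held for 108, 11 and 19 of the 19431 tested genes in replicates 1, 2 and 3 by H2bc14, for 50, 10 and 13 by H2bc7 and for 161, 12 and 136 by H2bc21. Among the genes named here they include Cer1, Evx1os, Grb10, Msgn1 and Ripply2 in replicate 1 and Hes7 in replicate 3 by H2bc14, and a value after subtraction is no estimate of the level of these genes. The shares moved with the comparison, so each result on the neighbour at 144 h is also given after such a share of the emiRFP profile of the same gastruloids was subtracted, wherever the H2bc14 share changed the call. The difference between 120 and 144 h was not computed after subtraction.

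Beside p53KO cells, 1955 genes rose and 2999 fell, which is 10.1% and 15.4% of the tested genes. Of all tested genes 25.5% were called, and the median log2 fold change over all of them was −0.03. Most differences were small: 59.6% of the called genes had an absolute log2 fold change under 0.5, and 718 genes reached 1, of which 358 rose and 360 fell. The direction was the same in all 3 same-numbered pairs for 4943 of the called genes. These were chosen by a test on the same libraries, so this count is no separate support. With TMM in place of median-of-ratios size factors, the split was 2331 higher and 2368 lower, that is 49.6% higher instead of 39.5%. Without replicate number 1, 2 or 3 in every group 2528, 2312 and 3044 genes were called, and 3028 without replicate 2 beside p53KO or 2934 without replicate 3 beside WT cells. With a replicate block, a term in the fit that pairs same-numbered libraries, 7221 genes were called. Where genes are said below to lose their call without a replicate number or library, only genes named in the text are listed.

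Of the 10 largest rises, 3 are given in full. Cer1, a secreted antagonist of Nodal, BMP and Wnt, had 50.6, 30.6 and 57.04 normalized counts beside p53KO and 0.885, 3.11 and 5.15 beside WT cells (log2 fold change 3.92, standard error 0.43, edgeR adjusted p = 8.78e-05). Hes7, the oscillating repressor of the segmentation clock, had 82.9, 37.3 and 41.99 normalized counts beside p53KO and 13.3, 6.21 and 9.27 beside WT cells (log2 fold change 2.49, standard error 0.34, edgeR adjusted p = 0.000321). Pitx1, a homeobox gene of hindlimb and posterior mesoderm, had 354, 407 and 142 normalized counts beside p53KO and 53.98, 78.4 and 15.5 beside WT cells (log2 fold change 2.56, standard error 0.51, edgeR adjusted p = 0.00301). For each of these, the lowest library beside p53KO cells was above the highest beside WT cells. Over all tested genes the groups did not overlap, in either direction, for 7328 genes or 37.7%. Nkx1-2, a caudal epiblast factor, and the growth factor adaptor gene Grb10 were also among the 10, as were Evx1os, Prss12, H2-K2 and the emiRFP marks H2bc14 and H2bc7. Reads of Evx1os and its antisense partner Evx1 may not have been told apart, since the strand setting of the count is not given in the sources used here, and H2-K2 shares sequence with other class I genes. After subtraction Nkx1-2 passed at 1.42 by H2bc7 and 1.16 by H2bc14 but not at 0.43 by H2bc21 (edgeR adjusted p = 0.528). By H2bc14, for Cer1, Hes7, Evx1os and Grb10 the share removes more counts than 1 library holds. Leaving out a replicate number or a library ended the call of Pitx1, Prss12, H2bc14 and H2bc7, with the highest edgeR adjusted p for Pitx1 (0.0694), Prss12 (0.138) and H2bc14 (0.0546) without replicate 1, and for H2bc7 (0.0669) without replicate 3.

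Of the 10 largest falls, C1qtnf3, Megf10 and Tfap2b are given in full. C1qtnf3, a secreted protein of cartilage and mesenchyme, had 49.7, 44.01 and 82.4 normalized counts beside p53KO and 582, 304 and 1022 beside WT cells (log2 fold change −3.41, standard error 0.45, edgeR adjusted p = 0.000239). Megf10, an engulfment receptor of muscle progenitors and glia, had 114, 78.5 and 111 normalized counts beside p53KO and 669.8, 606 and 1126 beside WT cells (log2 fold change −2.98, standard error 0.26, edgeR adjusted p = 1.92e-05). Tfap2b, a neural crest transcription factor, had 34.99, 46.9 and 57.04 normalized counts beside p53KO and 294, 341 and 342 beside WT cells (log2 fold change −2.80, standard error 0.17, edgeR adjusted p = 1.33e-06). The groups did not overlap for these 3 genes. The axon guidance receptor Epha3 and the adhesion molecule Chl1 fell, with log2 fold changes of −2.56 and −2.48, and Mir100hg, Dnm3os, Adamts12, Samd5 and Fam181b fell, with log2 fold changes between −2.11 and −2.36. Dnm3os lies antisense within Dnm3, so its reads are subject to the same doubt on strand. Without 1 replicate number or library, the test was not passed by Mir100hg and Dnm3os, with the highest edgeR adjusted p for Mir100hg (0.071) and Dnm3os (0.107) without replicate 1.

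**Figure D1:**
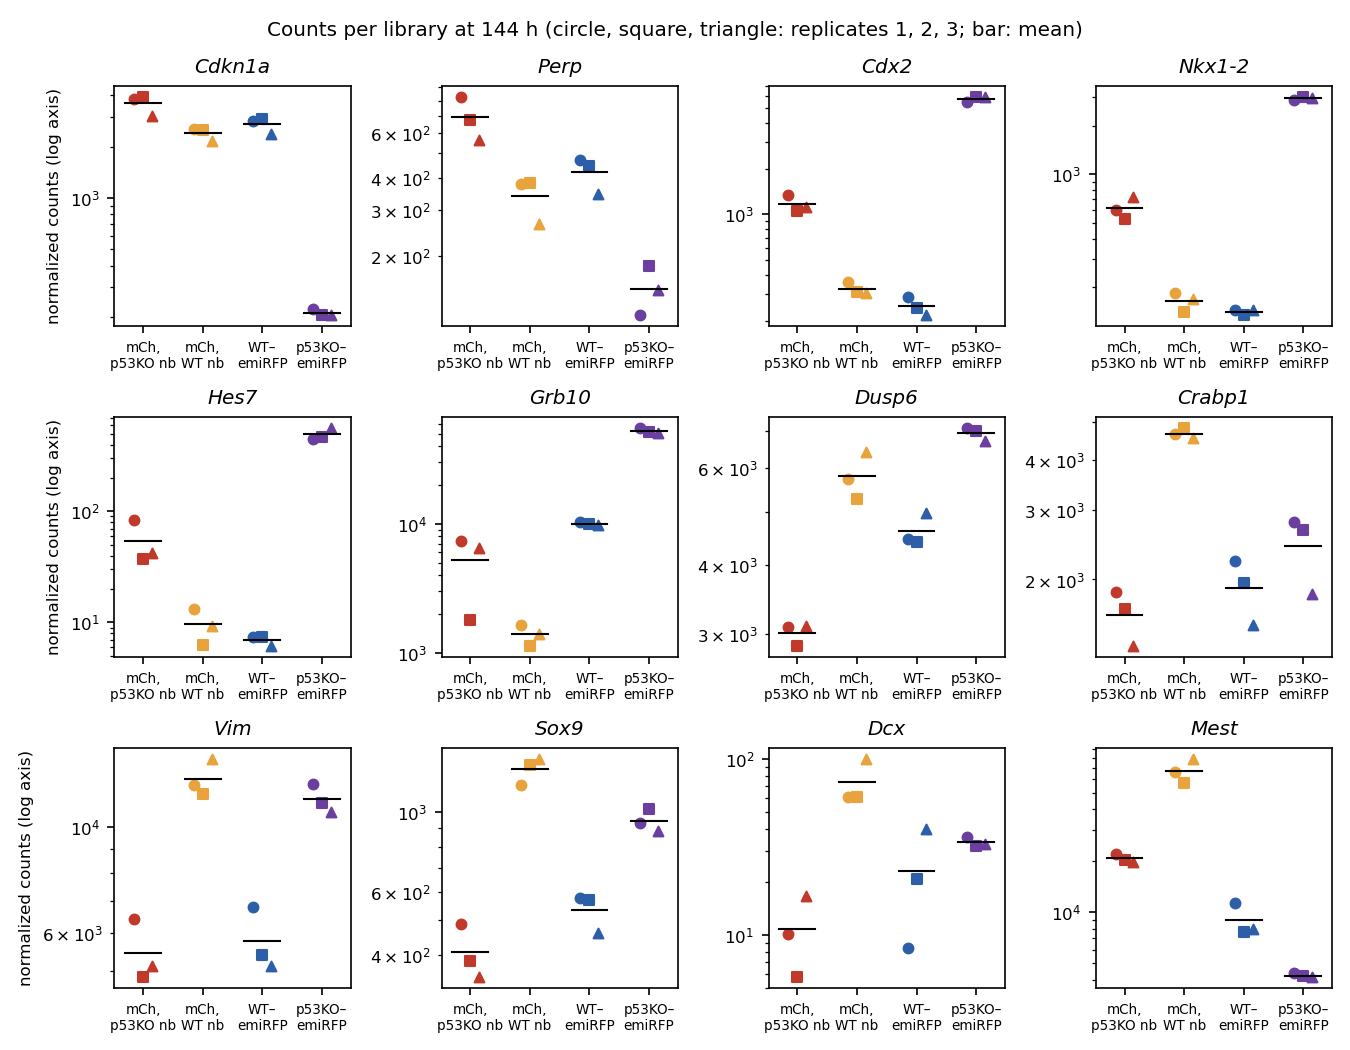
Normalized counts (log axis, a separate scale for each gene) of 12 genes in the 12 libraries at 144 h, with WT–mCherry cells (mCh) by their neighbour (nb), WT–emiRFP and p53KO–emiRFP cells side by side, points for replicates and a bar for the mean. Cdx2 and Nkx1-2 beside p53KO cells lie between the WT and the p53KO–emiRFP level, Grb10 is low in replicate 2, and Vim, Sox9 and Crabp1 beside p53KO cells lie near WT–emiRFP cells and below WT–mCherry cells beside WT.

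Several target genes of p53 rose in WT–mCherry cells beside p53KO cells. Of 29 targets of arrest, repair and feedback, 12 rose and 0 fell, against 10.1% and 15.4% of all genes, and the median log2 fold change was 0.19 against −0.03. Without replicate 1, 7 rose and 0 fell. Of 13 tested targets of apoptosis, 5 rose and 1 fell, with a median of 0.19, and without replicate 1, 3 rose and 1 fell. With the replicate block 15 arrest targets rose and 0 fell, and 8 apoptosis targets rose and 1 fell. Cdkn1a, which encodes the cyclin-dependent kinase inhibitor p21, had 3826, 3911 and 3015 normalized counts beside p53KO and 2524, 2494 and 2156 beside WT cells (log2 fold change 0.58, standard error 0.10, edgeR adjusted p = 0.00144). Mdm2, the ubiquitin ligase that removes p53, had 9715, 9460.2 and 9511 normalized counts beside p53KO and 6737, 7033 and 6635 beside WT cells (log2 fold change 0.49, standard error 0.04, edgeR adjusted p = 1.96e-05). The phosphatase gene Ptprv rose by 0.83, the stress cytokine Gdf15 by 0.75 and the Akt inhibitor Phlda3 by 0.63, all on the log2 scale. In these genes each library beside p53KO cells was above every library beside WT cells.

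The apoptosis targets that rose included a death receptor and a BH3-only protein. Fas, the receptor that triggers caspase 8 when bound by its ligand, had 68.1, 64.1 and 34.9 normalized counts beside p53KO and 21.2, 31.1 and 11.3 beside WT cells (log2 fold change 1.35, standard error 0.32, edgeR adjusted p = 0.00857). Perp, a membrane protein of desmosomes and p53-dependent death, had 827, 675 and 562 normalized counts beside p53KO and 379, 381 and 265 beside WT cells (log2 fold change 1.01, standard error 0.19, edgeR adjusted p = 0.00196). Bbc3, which encodes the BH3-only protein Puma, had 2915, 2285 and 2012 normalized counts beside p53KO and 1454, 1494 and 1334 beside WT cells (log2 fold change 0.75, standard error 0.11, edgeR adjusted p = 0.000602). Trp53i11 was the member that fell, at −0.93. In WT–emiRFP cells of the WT + WT gastruloids Cdkn1a had 2699 ± 293 and Perp 421 ± 64.7 (mean ± SD, n = 3 each), with means between those of the 2 groups of WT–mCherry cells. Gdf15 had 269 ± 13.6 there, with a mean above both groups, and Fas 19.5 ± 0.907, with a mean below both. Between the emiRFP clones, 21 of 29 and 9 of 13 members were lower in p53KO cells, with medians of −1.08 and −0.72. After subtraction by H2bc14, 18 of 29 and 7 of 13 members of the lists rose in WT–mCherry cells and the medians were 0.26 and 0.18. Among the p53 targets named so far, the call that did not survive the loss of 1 replicate number or library was that of Fas. Its highest edgeR adjusted p (0.125) was without replicate 1.

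Cdkn1a was the only member among these 17 with a match to the p53 response element, searched on both strands as 2 decamers with up to 13 bases between them, in the 300 bases around a RefSeq start site, for which 14 of the 17 had an entry. The stretch from 90 to 31 bases before its start, at chr17:29090889-29090948 on the plus strand of GRCm38.p6, is shown with both decamers in capitals, since its count rose with those of the other targets. The decamer that directly follows the second one misses the pattern by its first base only and is left in lower case.
Cdkn1a: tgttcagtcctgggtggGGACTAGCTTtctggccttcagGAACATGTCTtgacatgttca
Of all 27025 promoters in the RefSeq table, 0.074% held this pattern. A single decamer was in 4 of 11 matched arrest targets that rose and in 5 of 10 that did not, against 9.55% of all promoters, and a match in this window is no evidence of binding.

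Around p53 itself, Trp73, the p53 relative p73, rose (487, 497 and 473 normalized counts beside p53KO and 273, 282 and 250.4 beside WT cells, log2 fold change 0.85, standard error 0.09, edgeR adjusted p = 8.77e-05). Trp63 fell, with 6.45, 22 and 24.6 normalized counts beside p53KO and 48.7, 61.3 and 56.7 beside WT cells (log2 fold change −1.63, standard error 0.35, edgeR adjusted p = 0.0046). Of the p53 regulators, Hipk2, a kinase that phosphorylates p53, and the ubiquitin ligase Cop1 fell, with log2 fold changes of −0.45 and −0.24. In the Bcl2 family, 0 of 11 tested members rose and 2 fell, against 10.1% and 15.4% of all tested genes. Bcl2, the survival factor, had 267, 189 and 249 normalized counts beside p53KO and 529, 452 and 645 beside WT cells (log2 fold change −1.20, standard error 0.15, edgeR adjusted p = 0.000195), so that no library beside p53KO cells reached the lowest beside WT cells. Bcl2l11, the BH3-only protein Bim, fell by 0.41. Of 8 tested genes of the extrinsic pathway, the tumour necrosis factor receptor Tnfrsf1b rose by 0.63 and the caspase 8 inhibitor Cflar fell by 0.24. These calls too are near the share over all tested genes. The adaptor Fadd had 318, 267 and 277 normalized counts beside p53KO and 330.0, 408 and 328 beside WT cells and did not pass (log2 fold change −0.31, standard error 0.13, edgeR adjusted p = 0.0877). Fasl, the ligand of Fas, was not tested for its low counts, with 21 counts in all beside p53KO and 11 in the libraries beside WT cells. Of the p53 family and its regulators, 2 rose and 2 fell without replicate 1, 1 and 2 without replicate 2, 1 and 3 without replicate 3, and 2 and 4 with the replicate block. For the Bcl2 family these counts were 0 and 2, 0 and 2, 0 and 2, and 2 and 4, and 1 and 2 without the beside-p53KO library of replicate 3. For the extrinsic pathway these counts were 0 and 0, 1 and 0, 1 and 0, and 1 and 2. Fits that lacked a replicate number or library did not call Cop1, Tnfrsf1b and Cflar, with the highest edgeR adjusted p for Cop1 (0.101) without replicate 2, and for Tnfrsf1b (0.0527) without replicate 1, and for Cflar (0.355) without replicate 3.

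**Figure D2:**
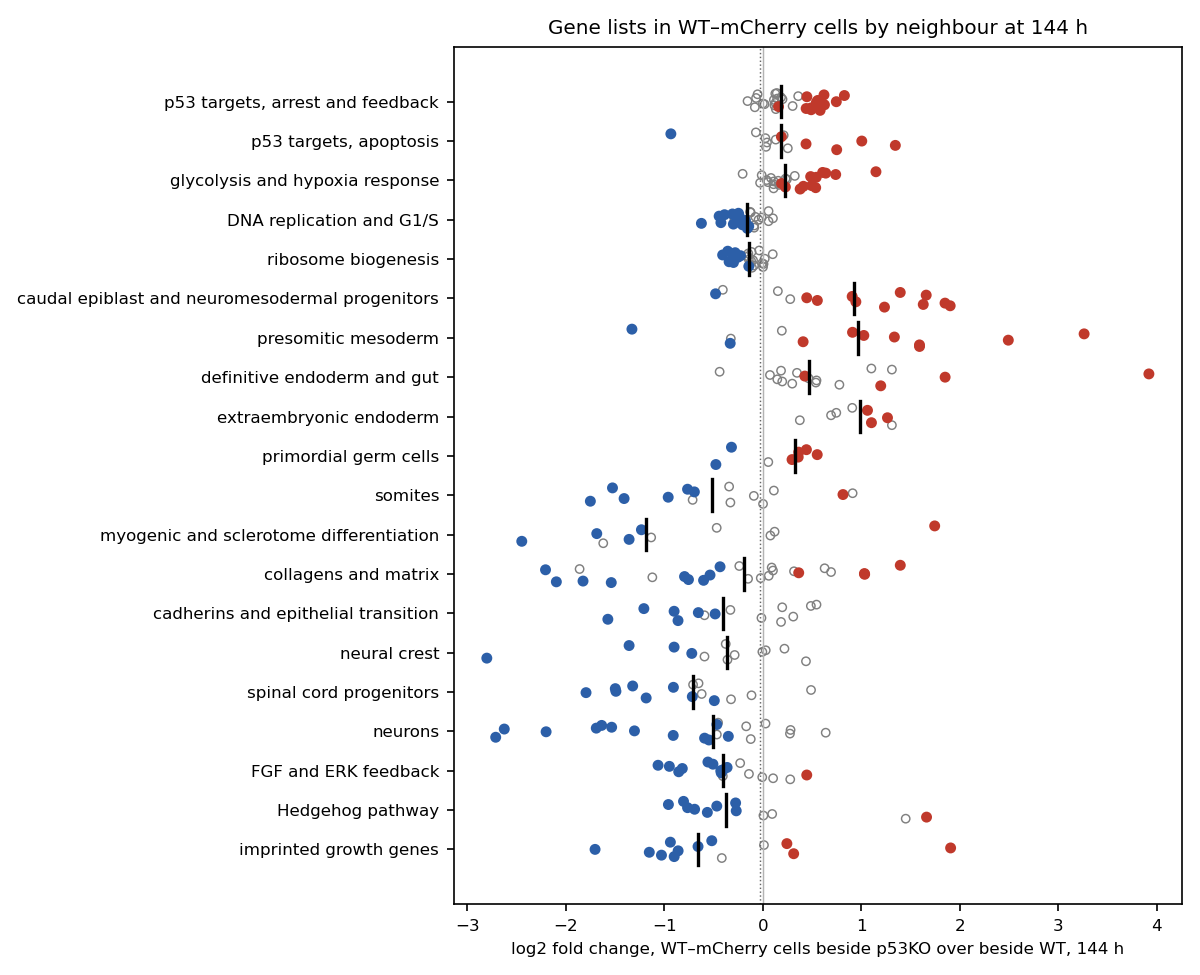
Log2 fold change at 144 h of each tested member of 20 gene lists in WT–mCherry cells beside p53KO over beside WT, filled red or blue where the gene rose or fell and open where it did not pass, with a bar at the median of the list and a dotted line at the median of all genes. Members of the p53 and glycolysis lists lie mostly to the right by small amounts, caudal and presomitic genes by larger ones, and neural, somite and matrix genes to the left.

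Of 26 genes of glycolysis and the response to low oxygen, 12 rose, 0 fell and 14 did not pass, with a median of 0.23, and without replicate 1, 8 rose. With the replicate block 16 rose and 0 fell. The vasoactive peptide gene Adm had 177, 238 and 114 normalized counts beside p53KO and 53.98, 117 and 63.9 beside WT cells (log2 fold change 1.15, standard error 0.35, edgeR adjusted p = 0.0296). Ndrg1, a hypoxia-inducible gene, had 2719, 3243 and 2479 normalized counts beside p53KO and 1564, 2000.3 and 1479.5 beside WT cells (log2 fold change 0.74, standard error 0.12, edgeR adjusted p = 0.000901), and P4ha1, a prolyl hydroxylase of collagen, had 8767, 9446 and 7897 normalized counts beside p53KO and 5442, 6444 and 4863 beside WT cells (log2 fold change 0.64, standard error 0.10, edgeR adjusted p = 0.000643). Ndrg1 and P4ha1 did not overlap between the groups, while the lowest Adm library beside p53KO cells lay below the highest beside WT cells. The mitophagy receptor Bnip3 rose by 0.54 and the glycolytic enzyme gene Pgk1 by 0.19. The median was 0.23 after subtraction by H2bc14 as well. P4ha1 had 5971 ± 598 in WT–emiRFP cells of the WT + WT gastruloids (mean ± SD, n = 3). With single replicate numbers or libraries removed in turn, calls were lost for Adm and Pgk1, with the highest edgeR adjusted p for Adm (0.213) without replicate 1, and for Pgk1 (0.152) without replicate 3.

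The promoters of this list were searched on both strands for ACGTG, the core of the hypoxia response element, which overlaps the E-box CACGTG. It was in 7 of the 11 matched promoters of members that rose and in 10 of the 13 of members that did not, against 27.8% of the 13198 tested genes with a promoter entry. The motif thus did not set the rising members apart within the list. Stretches of 60 bases before the start of 3 of them follow, with each match in capitals. P4ha1 is from chr10:59323236-59323295 and Pgk1 from chrX:106186930-106186989, both on the plus strand, and Bnip3 from chr7:138909587-138909646 on the minus strand of GRCm38.p6.
P4ha1: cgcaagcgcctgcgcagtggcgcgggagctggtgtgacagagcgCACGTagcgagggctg
Pgk1: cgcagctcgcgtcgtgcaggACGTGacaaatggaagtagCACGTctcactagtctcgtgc
Bnip3: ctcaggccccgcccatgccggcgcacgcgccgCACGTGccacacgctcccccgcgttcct

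Other stress programmes moved less evenly. Of 16 genes of the integrated stress response, 2 rose and 6 fell, with a median of 0.0045. Ddit3, the pro-apoptotic factor Chop, had 1241, 953 and 759.7 normalized counts beside p53KO and 496, 523 and 387 beside WT cells (log2 fold change 1.07, standard error 0.17, edgeR adjusted p = 0.000784), and Ddit4, an inhibitor of mTORC1 and also a p53 target, rose by 0.54. The cystine transporter Slc7a11, the folate enzyme Mthfd2 and the glutathione-degrading enzyme Chac1 fell, with log2 fold changes of −0.70, −0.35 and −0.34. Of 14 immediate early and heat shock genes 1 rose, Btg2, which is a p53 target as well (2161, 2105 and 1710.4 normalized counts beside p53KO and 1451, 1572 and 1377 beside WT cells). Of 17 tested interferon and MHC class I genes 3 rose and 0 fell. The peptide transporter Tap1 had 898, 889 and 672 normalized counts beside p53KO and 477, 554 and 363 beside WT cells (log2 fold change 0.81, standard error 0.16, edgeR adjusted p = 0.00286), and H2-K1 and Bst2 rose by 0.63 and 0.38. Of the 16 integrated stress response genes, 1 rose and 3 fell without replicate 1, 2 and 1 without replicate 2, 2 and 4 without replicate 3, and 4 and 6 with the replicate block. For the 14 immediate early and heat shock genes these counts were 0 and 0, 1 and 0, 1 and 0, and 8 and 0, and 2 and 0 without the beside-WT library of replicate 2. For interferon and MHC class I genes these counts were 0 and 0, 2 and 0, 3 and 0, and 6 and 1, and 5 and 0 without the beside-p53KO library of replicate 3. The 14 immediate early and heat shock genes had a median log2 fold change of 0.33, which was 0.215 without replicate 2 and −0.00165 without its beside-p53KO library alone. The stress response median lay between −0.0354 and 0.0434 with a replicate number or library left out. Leaving out a replicate number or a library ended the call of Ddit4, Slc7a11, Chac1, Btg2, Tap1, H2-K1 and Bst2, with the highest edgeR adjusted p for Ddit4 (0.0866), Btg2 (0.0798), Tap1 (0.0668), H2-K1 (0.256) and Bst2 (0.22) without replicate 1, and for Slc7a11 (0.0817) and Chac1 (0.111) without replicate 3.

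Several genes of S phase entry fell beside p53KO cells. Of 25 genes of DNA replication and the G1/S transition, 0 rose and 13 fell, with a median of −0.16. Without replicates 1 or 2, 6 and 5 of them fell, and 7 without replicate 2 beside p53KO or without replicate 1 beside WT cells. Ccne1, the cyclin that opens S phase, had 3922, 3629 and 3636 normalized counts beside p53KO and 5551, 5778 and 5904 beside WT cells (log2 fold change −0.62, standard error 0.05, edgeR adjusted p = 1.48e-05). Rrm1, a subunit of ribonucleotide reductase, had 10992, 10318 and 12409 normalized counts beside p53KO and 14949, 14513 and 16391 beside WT cells (log2 fold change −0.44, standard error 0.07, edgeR adjusted p = 0.000656), and Ccne2 fell by 0.43. Both Ccne1 and Rrm1 were separated between the groups. Of 24 mitotic genes 0 rose and 1 fell, Plk1, at −0.16, and the median was −0.02. With TMM scaling 2 of these 24 rose and 0 fell, with a median of 0.0144. Of 24 genes of ribosome biogenesis 0 rose and 9 fell, with a median of −0.14, led by the helicase Ddx21 (15194, 13958 and 15600.5 normalized counts beside p53KO and 18878, 19202 and 21291 beside WT cells), Heatr1 and Bop1, which fell, with log2 fold changes of −0.41, −0.36 and −0.34. Of the 24 ribosome biogenesis genes, 0 rose and 6 fell without replicate 1, 0 and 4 without replicate 2, 0 and 7 without replicate 3, and 0 and 14 with the replicate block. For mitotic genes these counts were 0 and 0, 0 and 0, 0 and 0, and 1 and 2, and 1 and 1 without the beside-p53KO library of replicate 1. Without 1 replicate number or library, the test was not passed by Ccne2, Plk1 and Heatr1, with the highest edgeR adjusted p for Ccne2 (0.128) and Heatr1 (0.143) without replicate 1, and for Plk1 (0.283) without replicate 2.

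Among 12 CDK inhibitors and genes of cell cycle exit, 1 rose and 4 fell. The pocket protein gene Rbl2 rose by 0.44. The cyclin Ccnd2 had 10953, 6861 and 8119.5 normalized counts beside p53KO and 16104, 13938 and 14292 beside WT cells (log2 fold change −0.77, standard error 0.16, edgeR adjusted p = 0.00357), Gas1 fell by 0.81 and the inhibitor Cdkn1c was at −0.66. All 3 were higher in the p53KO clone than in its WT parent line, with log2 fold changes of 2.02, 2.05 and 1.66. Of 20 genes of cholesterol synthesis 1 rose and 4 fell, against 10.1% and 15.4% of all tested genes. The fall of Idi1 was the largest, at −0.36. Of the 12 genes of cell cycle exit, 0 rose and 4 fell without replicate 1, 1 and 3 without replicate 2, 1 and 1 without replicate 3, and 1 and 5 with the replicate block. For cholesterol synthesis these counts were 0 and 1, 1 and 0, 0 and 2, and 3 and 4, and 3 and 2 without the beside-WT library of replicate 2. Among the genes named here, the calls that did not survive the loss of 1 replicate number or library were those of Rbl2, Gas1, Cdkn1c and Idi1. The highest edgeR adjusted p was for Rbl2 (0.135) without replicate 1, for Gas1 (0.193) and Cdkn1c (0.131) without replicate 3, and for Idi1 (0.237) without replicate 2.

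Most markers of the caudal epiblast and neuromesodermal progenitors rose in WT–mCherry cells beside p53KO cells. Of 14 such genes 10 rose and 1 fell, with a median log2 fold change of 0.93. Cdx2, which sets posterior identity, had 1344, 1049.5 and 1121 normalized counts beside p53KO and 361, 307 and 306 beside WT cells (log2 fold change 1.85, standard error 0.11, edgeR adjusted p = 1.33e-06). Nkx1-2 had 599, 530.0 and 719 normalized counts beside p53KO and 185, 141 and 170.0 beside WT cells (log2 fold change 1.90, standard error 0.12, edgeR adjusted p = 1.33e-06), and Sp5, a Wnt target, had 255, 249.7 and 193 normalized counts beside p53KO and 71.7, 81.5 and 65.9 beside WT cells (log2 fold change 1.66, standard error 0.17, edgeR adjusted p = 5.7e-05). T, the brachyury gene, had 484, 419 and 488 normalized counts beside p53KO and 252, 159 and 180.3 beside WT cells (log2 fold change 1.24, standard error 0.16, edgeR adjusted p = 0.0002). In these genes every library beside p53KO cells was above every library beside WT cells. Sp8 was the member that fell, at −0.48. Over the 3 same-numbered pairs the median of the list was 0.99, 0.66 and 1.07.

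Most of these genes were also higher in the p53KO clone than in its WT parent line. Cdx2 had 5778 ± 252 normalized counts in p53KO–emiRFP and 248 ± 35.4 in WT–emiRFP cells (mean ± SD, n = 3 each), and 13 of the 14 genes were higher in p53KO–emiRFP cells. After subtraction of emiRFP RNA the median of the list was 0.39 by H2bc7, with 8 genes higher and 2 lower, and 0.21 by H2bc14, with 6 higher and 3 lower. By H2bc21, which gives the largest shares, it was −0.58 with 4 higher and 3 lower, but this share removes more counts than a library holds for 7 of the 14 genes, against 1 by H2bc14 and 0 by H2bc7. Cdx2 remained higher by 1.09 (edgeR adjusted p = 0.00037) by H2bc14 and was 0.32 (edgeR adjusted p = 0.771) by H2bc21. Sp5 passed with all 3 marks, at 1.45, 1.36 and 1.09 by H2bc7, H2bc14 and H2bc21. T did not pass by H2bc14, at 0.24 (edgeR adjusted p = 0.722).

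Of 12 presomitic mesoderm genes, 8 rose and 2 fell, with a median of 0.97, and without replicates 1 or 2 in turn 5 rose. Ripply2, which helps to set somite borders, had 17.5, 9.57 and 26.1 normalized counts beside p53KO and 3.54, 0 and 2.06 beside WT cells (log2 fold change 3.26, standard error 0.64, edgeR adjusted p = 0.00263). Msgn1, a master gene of presomitic mesoderm, had 10.1, 12.4 and 7.92 normalized counts beside p53KO and 4.42, 1.55 and 4.12 beside WT cells (log2 fold change 1.59, standard error 0.41, edgeR adjusted p = 0.0125), and Tbx6, which commits cells to paraxial mesoderm, had 156, 150.2 and 124 normalized counts beside p53KO and 56.6, 45.04 and 40.2 beside WT cells (log2 fold change 1.59, standard error 0.22, edgeR adjusted p = 0.000315). No library overlapped between the groups. All 3 were higher in p53KO–emiRFP cells, where Tbx6 had 674 ± 22.6 (mean ± SD, n = 3). Pcdh8, a protocadherin of the segmenting mesoderm, instead fell, with 575, 379 and 414 normalized counts beside p53KO and 1141, 1096 and 1200.3 beside WT cells (log2 fold change −1.33, standard error 0.14, edgeR adjusted p = 8.24e-05). After subtraction by H2bc14 the median of the list was −0.09, with 2 genes higher and 3 lower. For 4 of the 12, among them Ripply2, Msgn1 and Hes7, that share removes more counts than a library holds. By H2bc7, where this was so for 1 of the 12, the median was 0.46. Tbx6 did not pass by H2bc14, at 0.87. The fall of Pcdh8 was −1.76 after subtraction by H2bc14. Over the 3 same-numbered pairs the list median was 1.09, 0.95 and 0.50. Fits that lacked a replicate number or library did not call Sp8 and Msgn1, with the highest edgeR adjusted p for Sp8 (0.263) without replicate 3, and for Msgn1 (0.194) without replicate 2.

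**Figure D3:**
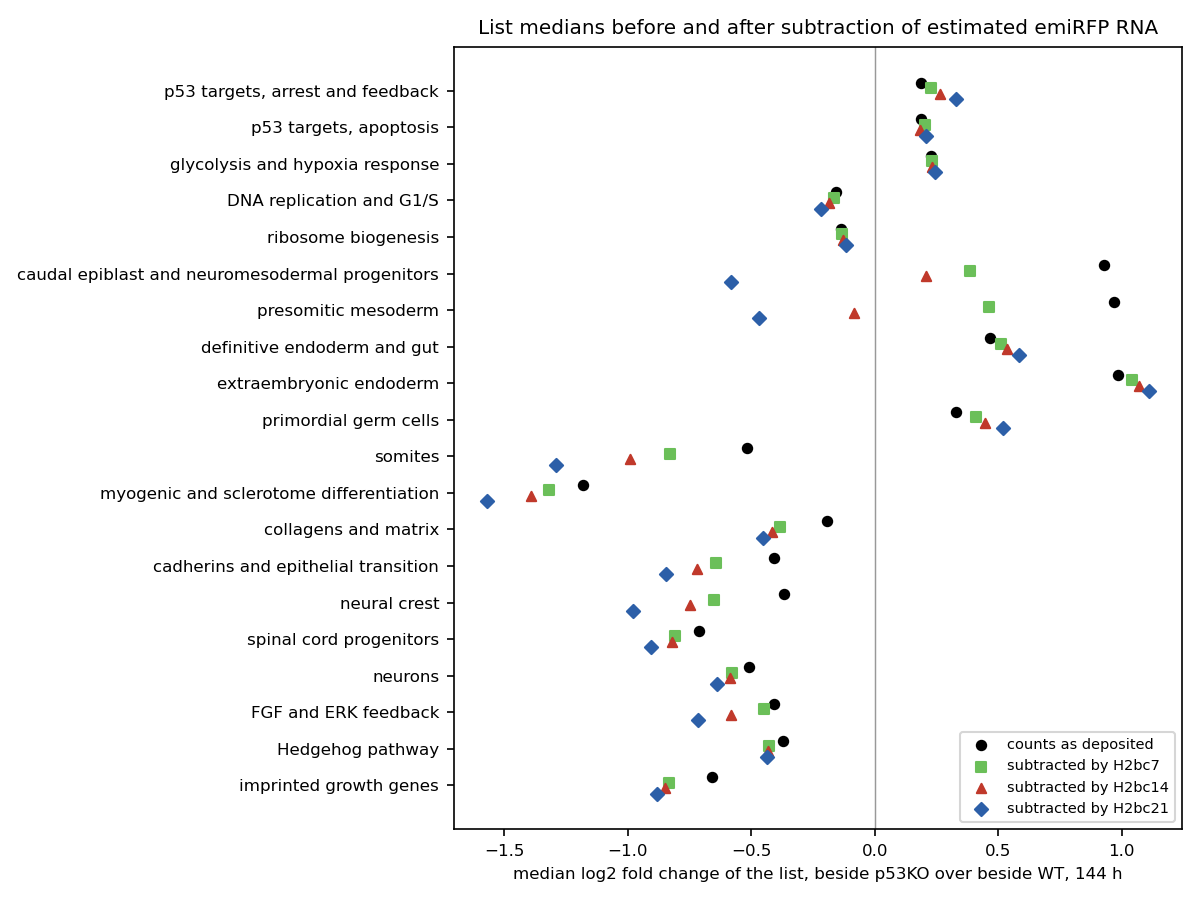
Median log2 fold change of 20 gene lists in WT–mCherry cells beside p53KO over beside WT at 144 h, from the deposited counts and after subtraction of emiRFP RNA with shares from H2bc7, H2bc14 or H2bc21. The caudal and presomitic medians move from above 0.9 towards or below 0, those of p53 targets, glycolysis and endoderm stay above 0, and those of somites, neural crest and spinal cord move further below 0.

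Several somite genes were lower beside p53KO cells. Of 14, 1 rose and 6 fell, with a median of −0.52. Meox2, a homeobox gene of somites and limb muscle precursors, had 159, 133 and 179.8 normalized counts beside p53KO and 509.7, 314 and 776 beside WT cells (log2 fold change −1.75, standard error 0.27, edgeR adjusted p = 0.00061). Fst, which encodes the activin antagonist follistatin, had 384, 292 and 284 normalized counts beside p53KO and 961, 715 and 1090.1 beside WT cells (log2 fold change −1.53, standard error 0.17, edgeR adjusted p = 8.81e-05), and Pax1, a sclerotome factor, had 391, 203 and 459 normalized counts beside p53KO and 929, 617 and 1268 beside WT cells (log2 fold change −1.41, standard error 0.29, edgeR adjusted p = 0.00357). Groups did not overlap for any of these. Foxc2 rose by 0.81, and was at 0.09 after subtraction by H2bc14 (edgeR adjusted p = 0.758). After that subtraction 10 of the 14 fell and the median was −0.99. Between the emiRFP clones, 13 of the 14 were higher in p53KO cells.

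Of 10 tested genes of myogenic and sclerotome differentiation, 1 rose and 4 fell, with a median of −1.18. Myog, the factor of terminal muscle differentiation, had 6.45, 11.5 and 15.1 normalized counts beside p53KO and 55.7, 27.95 and 103 beside WT cells (log2 fold change −2.45, standard error 0.46, edgeR adjusted p = 0.00213). Sox9, a regulator of cartilage, had 489.9, 386 and 348 normalized counts beside p53KO and 1184, 1349.6 and 1399 beside WT cells (log2 fold change −1.69, standard error 0.13, edgeR adjusted p = 6.16e-06), and Pax7, of muscle and dorsal neural progenitors, had 615, 335 and 445 normalized counts beside p53KO and 1261, 908 and 1414 beside WT cells (log2 fold change −1.36, standard error 0.23, edgeR adjusted p = 0.00124). Matn4, a matrix protein, rose, with 101, 101 and 98.2 normalized counts beside p53KO and 32.7, 34.2 and 21.6 beside WT cells (log2 fold change 1.75, standard error 0.22, edgeR adjusted p = 0.000181). Of the 14 somite genes, 0 rose and 5 fell without replicate 1, 2 and 7 without replicate 2, 0 and 5 without replicate 3, and 2 and 9 with the replicate block. For myogenic and sclerotome differentiation these counts were 1 and 3, 1 and 6, 1 and 3, and 1 and 6, and 1 and 7 without the beside-WT library of replicate 2. With single replicate numbers or libraries removed in turn, calls were lost for Foxc2, with the highest edgeR adjusted p for Foxc2 (0.146) without replicate 3.

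Several genes of mesenchyme and its matrix fell too. Of 24 tested collagens and matrix genes, 4 rose and 9 fell, with a median of −0.19. The fibrillar collagen gene Col3a1 had 559.8, 577 and 512 normalized counts beside p53KO and 1575, 1871 and 2399 beside WT cells (log2 fold change −1.83, standard error 0.20, edgeR adjusted p = 7.98e-05), Col1a2 fell by 2.10 and Postn was at −2.21. The basement membrane collagens Col4a1 (35844, 46875 and 16053 normalized counts beside p53KO and 14516, 22184 and 11489 beside WT cells) and Col4a2, Fn1 and Eln rose, and of these 4 only Eln passed without replicate 2. The Col4a1 libraries beside p53KO cells ranged widely, with replicate 3 below replicate 2 beside WT cells. Of 14 cadherins and genes of epithelial transition, 0 rose and 6 fell. Vim, the mesenchymal filament protein vimentin, had 6431, 4845 and 5107 normalized counts beside p53KO and 12214, 11749.6 and 13879.5 beside WT cells (log2 fold change −1.21, standard error 0.12, edgeR adjusted p = 3.99e-05). Cdh11, a mesenchymal cadherin, had 531, 388 and 509 normalized counts beside p53KO and 1187, 1092 and 1986 beside WT cells (log2 fold change −1.57, standard error 0.19, edgeR adjusted p = 0.000149), and Twist1 fell by 0.90. Vim had 5778 ± 899 in WT–emiRFP cells of the WT + WT gastruloids (mean ± SD, n = 3), which is near its level in WT–mCherry cells beside p53KO. Of the 24 collagens and matrix genes, 2 rose and 8 fell without replicate 1, 1 and 7 without replicate 2, 5 and 5 without replicate 3, and 7 and 10 with the replicate block, and 7 and 9 without the beside-p53KO library of replicate 3. For cadherins and epithelial transition these counts were 0 and 5, 2 and 6, 0 and 5, and 4 and 7. The median of collagens and matrix genes was −0.00865 without replicate 2. Leaving out a replicate number or a library ended the call of Fn1, Postn, Col4a1 and Col4a2, with the highest edgeR adjusted p for Postn (0.0838) without replicate 3, and for Col4a1 (0.277) and Col4a2 (0.245) without replicate 1.

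Neural genes that passed were lower. Of 14 tested genes of spinal cord progenitors, 0 rose and 8 fell, with a median of −0.71, and 4 fell without replicate 2 beside p53KO cells. With the replicate block 1 of them rose and 10 fell. Olig2, of motor neuron progenitors, had 37.8, 26.8 and 18.2 normalized counts beside p53KO and 80.5, 158 and 43.3 beside WT cells (log2 fold change −1.80, standard error 0.53, edgeR adjusted p = 0.0256), with replicate 1 beside p53KO cells close to replicate 3 beside WT cells. Dbx1, of intermediate progenitors, had 404, 248 and 234 normalized counts beside p53KO and 1019, 722 and 759 beside WT cells (log2 fold change −1.50, standard error 0.32, edgeR adjusted p = 0.00422), and Nkx6-1, of ventral progenitors, fell by 1.49. Of 20 tested neuronal genes, 0 rose and 12 fell, with a median of −0.51, and 8 fell without replicate 2. Without replicate 1 that median was −0.77, and 1 neuronal gene rose without replicate 3, with the replicate block and with DESeq2. Dcx, a microtubule protein of migrating neurons, had 10.1, 5.74 and 16.6 normalized counts beside p53KO and 61.1, 60.6 and 99.9 beside WT cells (log2 fold change −2.71, standard error 0.44, edgeR adjusted p = 0.000875). The proneural factors Neurod4 and Neurog1 had 24.9, 9.57 and 13.5 normalized counts beside p53KO and 85.8, 92.4 and 119.5 beside WT cells, and 40.5, 34.4 and 30.1 normalized counts beside p53KO and 125, 152 and 207 beside WT cells, which are log2 fold changes of −2.63 and −2.20. The 2 groups did not overlap for any of these 3 genes.

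Neural crest genes fell in 4 of 12 tested, with Tfap2b, Pax7 and Twist1 leading and 0 rising, and 3 of 8 tested anterior neural and placodal genes fell, led by the midbrain gene En1 (49.7, 35.4 and 33.3 normalized counts beside p53KO and 138, 88.5 and 159.7 beside WT cells, log2 fold change −1.70, standard error 0.25, edgeR adjusted p = 0.000446). After subtraction by H2bc14 the medians of spinal cord, neuronal and crest genes were −0.82, −0.59 and −0.75. In WT–emiRFP cells of the WT + WT gastruloids, Dcx had 23.1 ± 15.9 and Dbx1 198 ± 77.5 (mean ± SD, n = 3 each), below the WT–mCherry cells of the same gastruloids. Of the 12 neural crest genes, 0 rose and 4 fell without replicate 1, 0 and 4 without replicate 2, 0 and 4 without replicate 3, and 0 and 7 with the replicate block. For anterior neural and placodal genes these counts were 0 and 1, 0 and 4, 0 and 1, and 0 and 4. Without 1 replicate number or library, the test was not passed by Olig2 and Nkx6-1, with the highest edgeR adjusted p for Olig2 (0.188) without replicate 2, and for Nkx6-1 (0.128) without replicate 1.

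Most called genes of the FGF and Hedgehog pathways fell. Of 17 FGF ligands, receptors and feedback targets, 1 rose and 10 fell, with a median of −0.41. Dusp6, the phosphatase induced by and acting on ERK, had 3080.0, 2845 and 3098 normalized counts beside p53KO and 5730.2, 5273 and 6423 beside WT cells (log2 fold change −0.95, standard error 0.07, edgeR adjusted p = 6.45e-06). Etv1, an ERK-responsive factor, had 406, 346 and 539 normalized counts beside p53KO and 789, 808 and 1113 beside WT cells (log2 fold change −1.06, standard error 0.18, edgeR adjusted p = 0.00116), and Fgfr3 fell by 0.85. All 3 were separated between the groups, and Dusp6 fell by 1.17 after subtraction by H2bc14. The ligand Fgf17 rose by 0.45 and was at −0.39 after that subtraction. Of 12 tested Hedgehog genes 1 rose and 8 fell, with a median of −0.37. The co-receptors Boc (3746, 2231 and 3170.5 normalized counts beside p53KO and 6039, 4632 and 7122 beside WT cells) and Gas1 and the inhibitor Hhip fell, with log2 fold changes of −0.96, −0.81 and −0.76, and the endodermal ligand Ihh rose by 1.66 (333, 417 and 112 normalized counts beside p53KO and 81.4, 146 and 39.2 beside WT cells), with replicate 3 beside p53KO cells below replicate 2 beside WT cells. Of the 12 Hedgehog genes, 0 rose and 5 fell without replicate 1, 1 and 6 without replicate 2, 1 and 5 without replicate 3, and 2 and 8 with the replicate block. For FGF genes these counts were 0 and 8, 1 and 9, 1 and 10, and 1 and 12, and 2 and 8 without the beside-p53KO library of replicate 2. Among the genes named here, the calls that did not survive the loss of 1 replicate number or library were those of Fgf17, Gas1, Hhip and Ihh. The highest edgeR adjusted p was for Fgf17 (0.0961) and Ihh (0.22) without replicate 1, for Gas1 (0.193) without replicate 3, and for Hhip (0.0584) without replicate 2.

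In the BMP pathway, 1 of 17 rose and 5 fell. The ligand Bmp5 had 38.7, 36.4 and 48.3 normalized counts beside p53KO and 149, 152 and 211 beside WT cells (log2 fold change −2.04, standard error 0.19, edgeR adjusted p = 2.75e-05), the antagonist Grem1 fell by 2.02, and the target Msx1 rose by 0.68 (0.39 after subtraction by H2bc14, edgeR adjusted p = 0.149). Of 9 tested genes of the Nodal pathway 2 rose and 3 fell. The antagonists Lefty1 and Lefty2, both targets of Nodal, had 2709, 2605 and 3102 normalized counts beside p53KO and 5559, 6239 and 6099.5 beside WT cells and 663, 662 and 813 normalized counts beside p53KO and 1435, 1562 and 1719 beside WT cells, log2 fold changes of −1.09 and −1.14. The co-receptor Cfc1 rose by 0.87. Of the 17 BMP genes, 0 rose and 4 fell without replicate 1, 0 and 4 without replicate 2, 1 and 4 without replicate 3, and 1 and 7 with the replicate block. For Nodal genes these counts were 1 and 3, 2 and 3, 1 and 3, and 3 and 3. Fits that lacked a replicate number or library did not call Grem1, Msx1 and Cfc1, with the highest edgeR adjusted p for Grem1 (0.0567), Msx1 (0.129) and Cfc1 (0.0938) without replicate 1.

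In the Wnt pathway 6 of 19 tested genes rose and 4 fell. Rnf43, a feedback ligase induced by Wnt, had 343, 407 and 345 normalized counts beside p53KO and 147, 178 and 129 beside WT cells (log2 fold change 1.26, standard error 0.13, edgeR adjusted p = 5.7e-05), and Sp5 is given above. Wnt5a, the ligand of the tail bud, had 1612, 909.9 and 1504 normalized counts beside p53KO and 674, 453 and 632 beside WT cells (log2 fold change 1.20, standard error 0.20, edgeR adjusted p = 0.000917), was at 7607 ± 187 in p53KO–emiRFP cells (mean ± SD, n = 3), and was at 0.22 after subtraction by H2bc14 (edgeR adjusted p = 0.477). Of the secreted antagonists in this list, Sfrp2 had 2628, 2024 and 2126 normalized counts beside p53KO and 4836, 5204 and 5733 beside WT cells (log2 fold change −1.22, standard error 0.10, edgeR adjusted p = 1.38e-05), and Sfrp1 and Frzb fell, with log2 fold changes of −0.93 and −0.78. Rnf43 was at 1.31 after that subtraction. Each of these calls held with any 1 replicate number or WT–mCherry library left out.

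In the retinoic acid pathway 3 of 13 rose and 3 fell. The binding protein Crabp1 had 1855, 1682 and 1355 normalized counts beside p53KO and 4651, 4832 and 4546 beside WT cells (log2 fold change −1.52, standard error 0.16, edgeR adjusted p = 6.39e-05), the synthesizing enzyme Aldh1a2 had 528, 367 and 387 normalized counts beside p53KO and 672, 694 and 812 beside WT cells (log2 fold change −0.76, standard error 0.12, edgeR adjusted p = 0.000907), and Rdh10, which makes its substrate, fell by 0.48. The degrading enzymes Cyp26a1 and Cyp26c1 and the receptor Rarg rose by 0.91, 0.90 and 0.25. Of 16 Notch genes 4 rose and 5 fell: Jag2, a ligand, had 2601, 2474 and 2169 normalized counts beside p53KO and 1343, 1478 and 1094 beside WT cells (log2 fold change 0.89, standard error 0.11, edgeR adjusted p = 0.000167), and Hes5, a target in neural progenitors, had 96.7, 44.01 and 22.97 normalized counts beside p53KO and 173, 103 and 131 beside WT cells (log2 fold change −1.32, standard error 0.41, edgeR adjusted p = 0.032). Dll3 rose by 0.41 and was at −0.64 after subtraction by H2bc14. Of 10 tested YAP and TEAD targets 0 rose and 1, Lats2, fell, at −0.88, against 10.1% and 15.4% of all tested genes that rose and fell. Of the 16 Notch genes, 2 rose and 3 fell without replicate 1, 2 and 2 without replicate 2, 4 and 0 without replicate 3, and 4 and 7 with the replicate block. For retinoic acid genes these counts were 1 and 3, 2 and 3, 1 and 3, and 4 and 5. For YAP and TEAD targets these counts were 0 and 1, 0 and 1, 0 and 0, and 0 and 2, and 0 and 3 without the beside-WT library of replicate 2. With single replicate numbers or libraries removed in turn, calls were lost for Cyp26a1, Cyp26c1, Rarg, Hes5, Dll3 and Lats2, with the highest edgeR adjusted p for Cyp26a1 (0.171), Rarg (0.161) and Dll3 (0.125) without replicate 1, and for Cyp26c1 (0.272), Hes5 (0.146) and Lats2 (0.0682) without replicate 3.

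Of 15 tested Hox genes in groups 1 to 5, 2 rose and 2 fell, and of 12 in groups 6 to 9, 0 rose and 3 fell, with a median of −0.38, against 10.1% and 15.4% of all tested genes. Without the beside-p53KO library of replicate 2, the median of groups 6 to 9 was −0.21. Of 9 in groups 10 to 13, which are switched on last, 2 rose and 0 fell, with a median of 0.50. Hoxc13 had 115, 114 and 76.1 normalized counts beside p53KO and 38.05, 41.9 and 34 beside WT cells (log2 fold change 1.41, standard error 0.22, edgeR adjusted p = 0.000718) and Hoxb13 had 32.2, 32.5 and 34.1 normalized counts beside p53KO and 10.6, 17.9 and 12.4 beside WT cells (log2 fold change 1.25, standard error 0.31, edgeR adjusted p = 0.0109). Hoxc9, of trunk level, had 861, 566 and 654 normalized counts beside p53KO and 1343, 1254 and 1401 beside WT cells (log2 fold change −0.94, standard error 0.16, edgeR adjusted p = 0.00135), and Hoxb9 and Hoxc8 fell, with log2 fold changes of −0.61 and −0.52. The anterior gene Hoxd1 rose by 1.01, and Hoxa2 and Hoxa5 fell, with log2 fold changes of −0.50 and −0.42. After subtraction by H2bc14 10 of the 12 genes of groups 6 to 9 fell, and Hoxd1 was at 0.27 (edgeR adjusted p = 0.49). Of the 15 Hox genes of groups 1 to 5, 2 rose and 0 fell without replicate 1, 2 and 2 without replicate 2, 3 and 2 without replicate 3, and 3 and 4 with the replicate block. For groups 6 to 9 these counts were 0 and 5, 0 and 1, 0 and 1, and 0 and 7, and 0 and 6 without the beside-p53KO library of replicate 1. For groups 10 to 13 these counts were 2 and 0, 1 and 0, 1 and 0, and 3 and 0. Leaving out a replicate number or a library ended the call of Hoxb13, Hoxb9, Hoxc8, Hoxa2 and Hoxa5, with the highest edgeR adjusted p for Hoxb13 (0.0586) and Hoxa5 (0.131) without replicate 3, and for Hoxb9 (0.16) and Hoxc8 (0.145) without replicate 2, and for Hoxa2 (0.0923) without replicate 1.

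Several endodermal genes were higher. Of 17 genes of definitive endoderm and gut, 4 rose and 0 fell, and 3 of 8 tested genes of extraembryonic endoderm rose. Of all tested genes 10.1% rose and 15.4% fell. Among the 4 is Cer1, of which the H2bc14 share removes more counts than replicate 1 beside p53KO cells holds. Sox17 and Sox7 also belong to the endothelial list. Of the 8 extraembryonic endoderm genes, 0 rose and 0 fell without replicate 1, 1 and 0 without replicate 2, 4 and 0 without replicate 3, and 7 and 0 with the replicate block, and 6 and 0 without the beside-p53KO library of replicate 3, and 5 and 0 without the beside-WT library of replicate 2. For definitive endoderm and gut these counts were 2 and 0, 4 and 0, 4 and 0, and 11 and 0, and 8 and 0 without the beside-p53KO library of replicate 3, and 7 and 0 without the beside-WT library of replicate 2. Sox17, of endoderm and endothelium, had 648, 693 and 251 normalized counts beside p53KO and 249, 326 and 111 beside WT cells (log2 fold change 1.20, standard error 0.38, edgeR adjusted p = 0.0346). The secreted inhibitor Spink1 had 289, 488 and 116 normalized counts beside p53KO and 71.7, 137 and 32.97 beside WT cells (log2 fold change 1.85, standard error 0.53, edgeR adjusted p = 0.0221), and Amn, a receptor of visceral endoderm, had 262, 321 and 156 normalized counts beside p53KO and 112, 136 and 92.7 beside WT cells (log2 fold change 1.10, standard error 0.29, edgeR adjusted p = 0.0136). For Spink1 and Sox17, replicate 3 beside p53KO cells was lower than replicate 2 beside WT cells, while each was higher than its own partner. Apob and Sox7 rose by 1.06 and 1.27. Spink1 was at 8.50 ± 3.59 in p53KO–emiRFP cells (mean ± SD, n = 3), below both WT–mCherry groups. Without 1 replicate number or library, the test was not passed by Sox17, Spink1, Amn, Apob and Sox7, with the highest edgeR adjusted p for Sox17 (0.229), Spink1 (0.176), Amn (0.108) and Sox7 (0.234) without replicate 1, and for Apob (0.194) without the beside-p53KO library of replicate 2.

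Endothelial genes were divided: of 17, 4 rose and 6 fell, and without replicate 1, 1 rose and 4 fell. Kdr, the vascular endothelial growth factor receptor of early progenitors, had 394, 367 and 345 normalized counts beside p53KO and 823, 763 and 1118 beside WT cells (log2 fold change −1.29, standard error 0.14, edgeR adjusted p = 8.46e-05). Etv2, the factor that starts the lineage, and Emcn fell, with log2 fold changes of −1.09 and −1.48. Flt1, another receptor of the family, rose, with 884, 1243 and 507 normalized counts beside p53KO and 243, 402 and 150.4 beside WT cells (log2 fold change 1.71, standard error 0.39, edgeR adjusted p = 0.0062). Of 8 germ cell genes 5 rose and 2 fell, and without replicate 1 or 3, 1 rose: Nanos3 had 215, 182 and 216 normalized counts beside p53KO and 158, 136 and 124 beside WT cells (log2 fold change 0.55, standard error 0.15, edgeR adjusted p = 0.0181), Kit and Dnd1 rose by 0.44 and 0.37, and Prdm1 and Ifitm3 fell, with log2 fold changes of −0.48 and −0.32. None of 14 pluripotency genes passed, and those with the highest counts, Dppa5a and Lin28a, had log2 fold changes of 0.20 and 0.01 (edgeR adjusted p = 0.138 and 0.929). With the replicate block 4 pluripotency genes rose and 1 fell, with DESeq2 2 of the 14 passed, and 3 had an unadjusted p under 0.05. After subtraction by H2bc14 Ifitm3 was at −0.21 (edgeR adjusted p = 0.0606). Among the genes named here, the calls that did not survive the loss of 1 replicate number or library were those of Flt1, Nanos3, Dnd1, Prdm1 and Ifitm3. The highest edgeR adjusted p was for Flt1 (0.0928), Dnd1 (0.128) and Prdm1 (0.143) without replicate 1, for Nanos3 (0.135) without replicate 3, and for Ifitm3 (0.0995) without replicate 2.

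Of 13 tested imprinted genes of growth control, 3 rose and 8 fell, with a median of −0.66. Mest, a paternally expressed gene of mesenchyme, had 21823, 20251 and 19713 normalized counts beside p53KO and 65888, 56699 and 78645 beside WT cells (log2 fold change −1.70, standard error 0.14, edgeR adjusted p = 9.66e-06). Peg3 had 28083, 27269.9 and 30504 normalized counts beside p53KO and 60055, 44420.3 and 86424 beside WT cells (log2 fold change −1.15, standard error 0.17, edgeR adjusted p = 0.000553), and Dlk1, a Notch-related ligand, had 820.4, 403 and 700.3 normalized counts beside p53KO and 1312, 915 and 1712 beside WT cells (log2 fold change −1.03, standard error 0.26, edgeR adjusted p = 0.0104). WT–emiRFP cells of the WT + WT gastruloids had 8937 ± 2048 of Mest (mean ± SD, n = 3), below both WT–mCherry groups. Grb10 rose in the deposited counts, with 7327, 1799 and 6469 normalized counts beside p53KO and 1635, 1119.8 and 1407 beside WT cells (log2 fold change 1.91, standard error 0.35, edgeR adjusted p = 0.00179), and replicate 2, which had the smallest emiRFP share, was far below the other two. p53KO–emiRFP cells had 52688 ± 2488 (mean ± SD, n = 3), and after subtraction by H2bc7 Grb10 did not pass, at 0.28. By H2bc14 and H2bc21 the subtraction removes more counts of Grb10 than replicate 1 holds. Meg3 and Igf2r rose by 0.31 and 0.24. Of the 13 imprinted genes, 2 rose and 8 fell without replicate 1, 1 and 8 without replicate 2, 2 and 6 without replicate 3, and 3 and 9 with the replicate block. Fits that lacked a replicate number or library did not call Dlk1, Meg3 and Igf2r, with the highest edgeR adjusted p for Dlk1 (0.0831) without replicate 3, and for Meg3 (0.227) and Igf2r (0.267) without replicate 2.

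**Figure D4:**
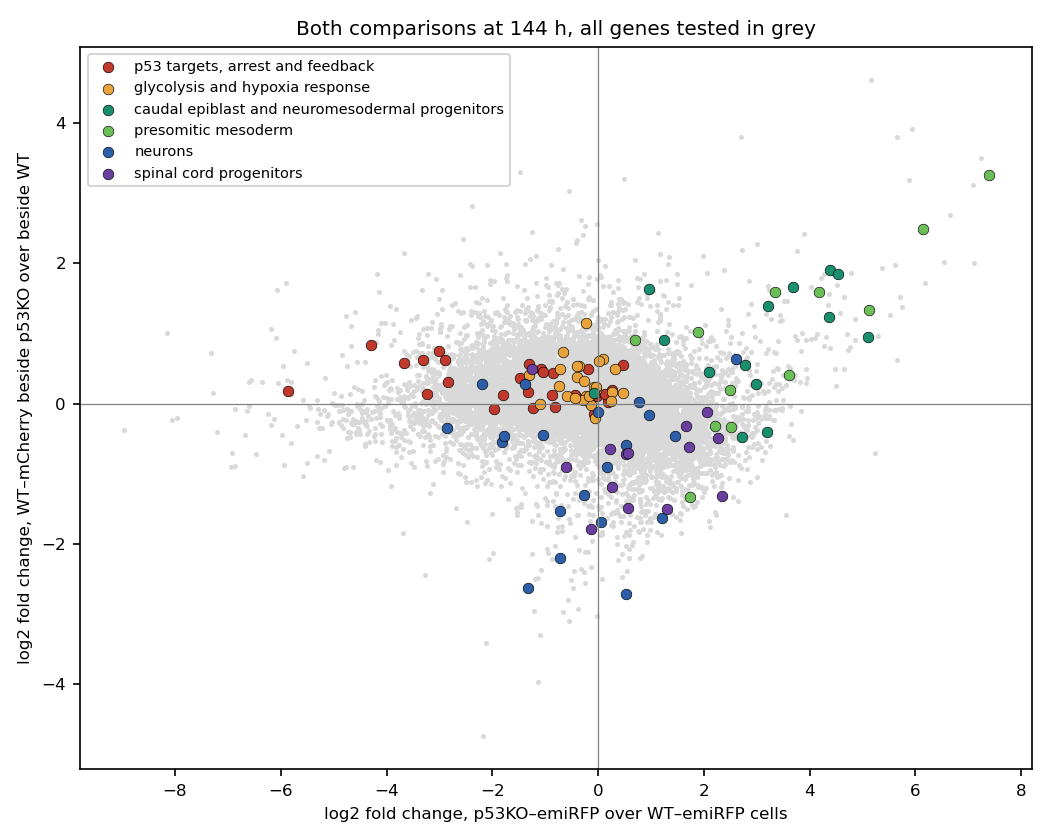
Log2 fold change of WT–mCherry cells beside p53KO over beside WT (vertical) against that of p53KO–emiRFP over WT–emiRFP cells (horizontal) at 144 h, 1 point per tested gene, with 6 gene lists in colour. Arrest targets of p53 lie mostly at the upper left, caudal and presomitic genes at the upper right, and neuronal and spinal cord genes mostly in the lower part.

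The comparison of p53KO–emiRFP with WT–emiRFP cells shares no library with that of WT–mCherry cells, but its p53KO–emiRFP cells came from the same gastruloids as the WT–mCherry cells beside them. Between the emiRFP clones 65.3% of genes were called, 33.1% higher and 32.1% lower in p53KO cells. Of the 1955 genes that rose in WT–mCherry cells, 57.2% were lower and 17.1% higher in p53KO–emiRFP cells. Of the 2999 that fell, 62.7% were higher and 14.5% lower there. Most called genes thus had the opposite sign in the emiRFP clones. Caudal and presomitic genes mostly had the same sign, with medians of 3.09 and 2.93 in p53KO–emiRFP cells. The 2 comparisons are set out gene by gene in the plot of both log2 fold changes.

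WT–mCherry and WT–emiRFP cells of the same WT + WT gastruloids also differed at 144 h, a contrast added after the data were seen. It called 4620 genes, or 23.8%, of which 2521 were higher in WT–mCherry cells. The median absolute log2 difference over tested genes was 0.20 between these clones, 0.21 between WT–mCherry cells by neighbour and 0.18 between WT–mCherry cells beside p53KO and WT–emiRFP cells. Of lists with more falls than rises by neighbour, some were higher in WT–mCherry than in WT–emiRFP cells here: 12 of 14 somite genes, 9 of 14 spinal cord genes, 12 of 12 Hox genes of groups 6 to 9 and 7 of 13 imprinted genes, with medians of 1.20, 1.00, 1.32 and 0.97. Others were not: of 24 ribosome biogenesis genes 0 were higher and 3 lower, of 17 FGF genes 3 and 4, and of 25 genes of DNA replication 3 and 2, while of 20 neuronal genes 7 were higher and 2 lower. Of lists that rose by neighbour, 8 of 29 arrest targets of p53 and 11 of 26 genes of glycolysis and hypoxia were lower here, with 0 higher in both. Presomitic and caudal genes were instead higher, in 6 of 12 and 5 of 14, with 0 and 2 lower. The WT–mCherry libraries beside WT enter both this contrast and the comparison by neighbour. How much of each result rests on the level of these shared libraries was not tested.

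The effect of the neighbour differed between 120 and 144 h for part of the genes. The difference between the neighbour effect at 144 h and that at 120 h passed for 1254 of 19967 genes, or 6.28%. Of these 360 were positive and 894 negative, and the replicate block gave 3678. Without 1 replicate number the count was 427, 436 and 175. The test of this difference was not run after subtraction of emiRFP RNA. Vim had 4869 ± 45.4 beside p53KO and 4219 ± 383 beside WT cells at 120 h, against 5461 ± 850.2 and 12614 ± 1119.9 at 144 h (mean ± SD, n = 3 each). Sox9 had 326 ± 63.9 and 408 ± 73.6 beside p53KO cells at 120 and 144 h, and 236 ± 18.98 and 1311 ± 113 beside WT cells. The difference of effects was −1.41 for Vim and −2.15 for Sox9 (edgeR adjusted p = 7.47e-06 and 1.4e-06). In both genes the means beside WT cells moved further over the last day than those beside p53KO cells.

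The mean of Cdx2 was lower at 144 h than at 120 h in both groups. It went from 8583 ± 889 to 1172 ± 154 beside p53KO cells and from 5524 ± 459 to 325 ± 31.6 beside WT cells, and the difference of effects was 1.22 (edgeR adjusted p = 7.04e-05). The p53 target Perp had a higher mean beside p53KO cells at both times, with 946 ± 133 against 542 ± 136 at 120 h, and the difference of its effects did not pass (edgeR adjusted p = 0.715, difference 0.20, standard error 0.25). WT–emiRFP cells give a course over time from libraries outside the comparison by neighbour. Of the genes that rose beside p53KO cells, 36.2% rose in WT–emiRFP cells from 120 to 144 h, against 19.1% of tested genes, and 10.8% fell, against 16.2%. Of the genes that fell, 39% fell there and 13.4% rose.

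**Figure D5:**
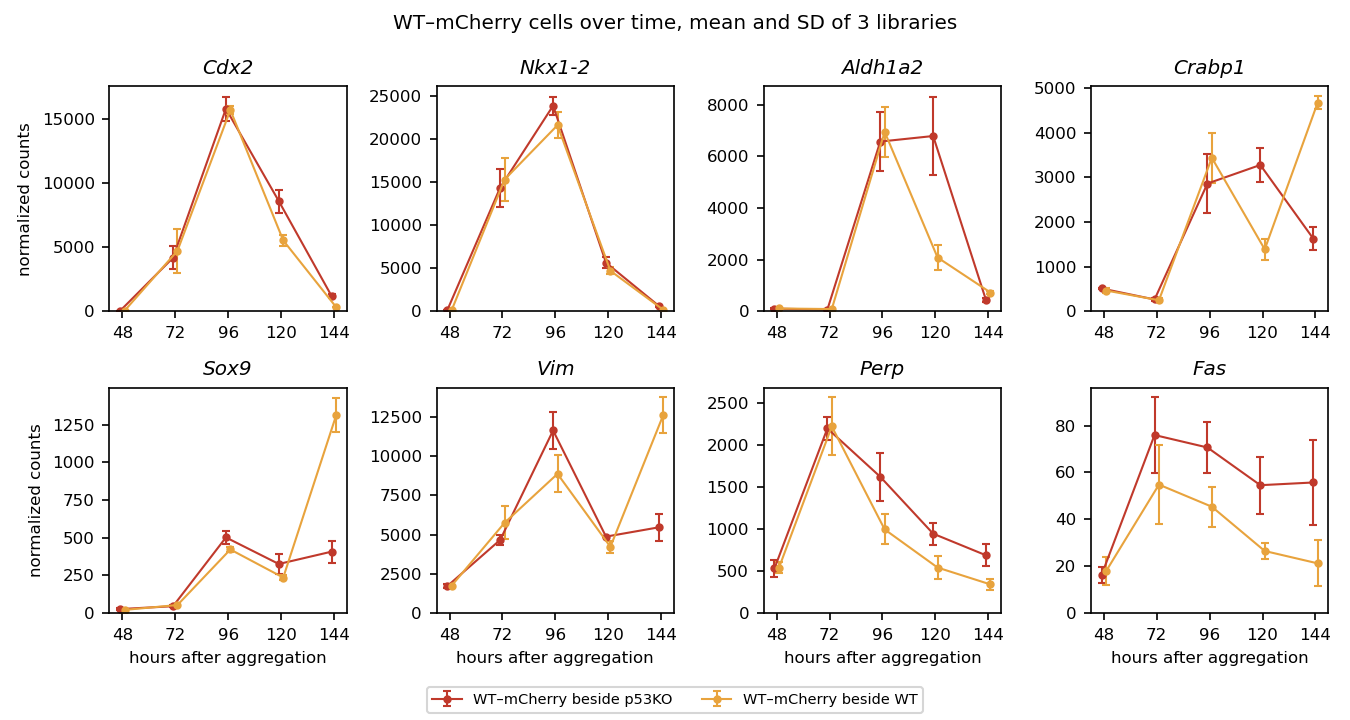
Mean and SD of normalized counts (n = 3 libraries) of 8 genes in WT–mCherry cells from 48 to 144 h after aggregation, beside p53KO cells (red) and beside WT cells (orange), on a linear axis from 0. At 144 h the means of Crabp1, Sox9 and Vim are higher beside WT cells, those of Cdx2 and Nkx1-2 are low in both groups, and Perp and Fas have higher means beside p53KO cells from 96 h.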

How the data were processed

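Per the labels and the study's methods, the authors trimmed reads of poly(A) libraries with Trim Galore 0.6.7, aligned them with STAR 2.7.11b to GRCm38.p6 and deposited raw counts per gene for 69 libraries. The strand setting is not given in the sources used here. The libraries used here were 12 at 144 h, and 12 at 120 h for the difference between times, with 3 replicates a group, and library totals set the counting precision.

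Counts as deposited were scaled by median-of-ratios size factors, filtered with filterByExpr and fitted with edgeR 4.0.16 (quasi-likelihood, R 4.3.3) over the 12 libraries, with Benjamini-Hochberg adjusted p under 0.05. Same-numbered libraries deviated together (r = 0.174, 0.6 and 0.529 over 14159 genes), so the numbers pair the samples, and a replicate block was an alternative. The calls reported are from the fit without the block, which leaves this pairing out. Some genes said not to pass therefore do pass with the block. The fits with a replicate number or library left out had no block either. Per the study, the replicates were 3 experiments made at different times, with many gastruloids in each. Other alternatives were TMM, no filter, DESeq2 1.42.0, other sets of libraries, each library left out, and subtraction of emiRFP RNA in proportion to an emiRFP clone mark. The scripts were tested on simulated data.

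Named genes were Trp53, Fas, Fasl, Fadd and the emiRFP marks, the 10 largest rises and falls that kept their direction in all pairs, at a mean log2 CPM from 1 upwards and without predicted genes, up to 3 called members of each list in each direction, up to 2 members of lists with no call, and the 5 largest differences between times in each direction. Cdkn1a, Mdm2, Pgk1, Bnip3 and Tbx6, and called members beyond 3, were added after their values were seen, as was the contrast of the WT clones. Members and lists were chosen with earlier results of these data known. Some genes of the lists that the rule names are not reported here. Promoters are RefSeq sequences of GRCm38.p6.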

Additional observations from a re-analysis of the deposited data

Results flagged for a closer look

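For 10 genes the effect of the neighbour differed between 144 and 120 h by the test of the difference itself, in a fit over 24 libraries. The difference, as log2 effect at 144 h minus that at 120 h, was 2.97 for Cer1, 1.64 for Nkx1-2, 1.58 for the imprinted gene Zim1, 1.52 for Paqr6 and 1.36 for Tchh. It was −2.76 for Crabp1, −2.47 for Aldh1a2, −2.43 for Hes5, −2.39 for Chl1 and −2.32 for Lhfp. Crabp1, Aldh1a2, Hes5 and Lhfp passed at both times with opposite signs: at 120 h they had log2 fold changes of 1.24, 1.71, 1.11 and 0.60 beside p53KO cells, and at 144 h of −1.52, −0.76, −1.32 and −1.73. The edgeR adjusted p of the difference was 3.07e-07 for Crabp1, 0.00307 for Cer1 and 0.00438 for Hes5. These 10 were taken from the 1254 genes that passed by the rule for named genes, and genes with fewer counts or without the same direction in all 3 replicate numbers, such as Dcx and Postn, had larger differences.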

How the results depend on the processing

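The count of 4954 genes by neighbour at 144 h was 4699 with TMM, 5143 without the filter on low counts, 5213 with DESeq2, 3425 with the 6 WT–mCherry libraries alone, 5478 with all 69 libraries and 7221 with the replicate block. Asking for an absolute log2 fold change of at least 1 gave 718, since it removes small differences. With one replicate number left out of every group, the count was 2312 to 3044, the lowest without replicate 2. With 1 WT–mCherry library left out it was 2934 to 4856, with 3028 without replicate 2 beside p53KO cells and 2934 without replicate 3 beside WT cells. The list genes called, 262 in the fit reported, numbered 170 to 269 with a replicate number or library left out, the lowest without replicate 1, and 218 to 367 under the other settings, the highest with the replicate block. The difference between times was called for 1254 genes, for 3678 with the replicate block, 1852 with DESeq2 and 1734 with no filter, and for 175 to 436 without 1 replicate number. The block ended the call of none of the 195 results on named genes, against 68, 41 and 43 ended without replicates 1, 2 and 3. TMM ended 6 of them, the fit with no filter 4 and DESeq2 3. Among the results at 144 h alone, 29 calls ended with only the 6 WT–mCherry libraries and 13 with all 69 libraries.

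Subtraction of emiRFP RNA gave 6476, 6147 and 7117 genes by H2bc14, H2bc7 and H2bc21. It took Grb10 to −0.50 by H2bc14 and −2.91 by H2bc21, but these shares remove more Grb10 counts than replicate 1 beside p53KO cells holds, so that the signs are not interpretable. Fgf17 went to −0.39, −0.11 and −1.10, and Dll3 to −0.64, −0.26 and −1.59, by H2bc14, H2bc7 and H2bc21. By H2bc21 alone, Hes7 went to −0.28, Foxc2 to −0.62, T to −0.78, Wnt5a to −1.04, Hoxd1 to −0.46, Zim1 to −0.22 and Trp53 to 0.019. In some library beside p53KO cells the H2bc21 share also removes more counts than were measured of Fgf17, Dll3, Hes7, T and Wnt5a.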

Other observations

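Of 20 lateral plate and cardiac genes 5 rose and 2 fell, with a median log2 fold change of 0.38, against 10.1% and 15.4% of all tested genes that rose and fell. That median was 0.25 without the beside-p53KO library of replicate 1 and 0.65 without the beside-WT library of replicate 2. The contractile genes Myh7, Tnni1 and Myl7 and the cardiac factor Gata4 rose by 1.44, 1.27, 0.78 and 1.16, while Prrx1 and Mef2c fell, at −1.66 and −1.25. Gata4 had 950.3, 1398 and 559 normalized counts beside p53KO and 379.6, 688 and 217 beside WT cells. Of 8 genes of intermediate mesoderm 2 rose and 1 fell, among them Lhx1, which rose by 1.35, and Wt1, which fell by 1.12. Of 10 tested blood genes, Itga2b rose by 0.63, and Lmo2 and Tal1 fell, at −0.70 and −0.63, which is near the share over all tested genes. Of the 20 lateral plate and cardiac genes, 2 rose and 2 fell without replicate 1, 3 and 2 without replicate 2, 4 and 2 without replicate 3, and 8 and 2 with the replicate block. For intermediate mesoderm these counts were 0 and 1, 2 and 1, 2 and 1, and 2 and 1. For blood genes these counts were 0 and 0, 0 and 1, 1 and 0, and 1 and 2, and 2 and 1 without the beside-p53KO library of replicate 3. With single replicate numbers or libraries removed in turn, calls were lost for Myh7, Gata4, Lhx1, Itga2b, Lmo2 and Tal1, with the highest edgeR adjusted p for Myh7 (0.392) and Itga2b (0.0838) without replicate 2, and for Gata4 (0.23), Lhx1 (0.0508) and Tal1 (0.122) without replicate 1, and for Lmo2 (0.0924) without replicate 3.

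Of 10 surface ectoderm genes 3 rose, Perp, Tfap2c and Grhl3, at 1.01, 0.30 and 0.29, and Trp63 fell by 1.63. Of 9 tested genes of notochord and floor plate, T and Krt19 rose, and Sox9 and Nrp2 fell, at −1.69 and −0.73. Of the 10 surface ectoderm genes, 1 rose and 1 fell without replicate 1, 2 and 1 without replicate 2, 2 and 1 without replicate 3, and 3 and 1 with the replicate block. For notochord and floor plate these counts were 1 and 2, 1 and 2, 2 and 2, and 5 and 2. Leaving out a replicate number or a library ended the call of Krt19, Tfap2c and Grhl3, with the highest edgeR adjusted p for Krt19 (0.24) and Grhl3 (0.058) without replicate 1, and for Tfap2c (0.0845) without replicate 3. T, Sox9, Perp and Trp63 also belong to lists described above.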
